A study of Mus musculus with 2 samples.

Results

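The genes described here are the 6 Fc receptor genes Fcgr1, Fcgr3, Fcgr4, Fcer1g, Fcgr2b and Fcgrt, taken by symbol from the 32285 mouse genes of 2 single-cell RNA libraries. All 6 were found in both libraries, and the rule uses their names, not their levels. Each library came from mouse brain holding a tumour grown from implanted GL261 cells, a mouse glioma line, and was collected at day 24. One library is labelled Cav3.2KO, with the genotype Cacna1H-/-, and the other is labelled WT, with the genotype C57BlL6 WT. Cacna1h encodes the pore of the T-type calcium channel Cav3.2, and the series asks what that channel does in the tissue around the tumour. The implanted tumour cells are of the same line under both labels, so the label concerns the host cells. Strain of the knockout, age, sex and the number of animals per library are not given in the labels.

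Fc receptors bind the constant part of antibodies and pass the signal into the cell that carries them. In mice, the products of Fcgr1, Fcgr3 and Fcgr4 are activating receptors for IgG and need the signalling chain encoded by Fcer1g, whereas the product of Fcgr2b carries its own inhibitory motif. Fcgrt encodes the heavy chain of FcRn, which pairs with beta-2 microglobulin and returns IgG from endosomes to the cell surface. In the brain, microglia and macrophages are known carriers of the IgG receptors, NK cells carry the Fcgr3 product, and B cells carry the Fcgr2b product.

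Both libraries were read as UMI counts, 1 UMI standing for 1 captured RNA molecule counted near its 3' end. Cells were barcodes that reached 500 mouse genes with no more than 10% of UMIs from mitochondrial genes, which gave 6575 cells with 100764971 mouse UMIs under the Cav3.2KO label and 3110 cells with 52031677 under the WT label. Medians per cell were 11071 and 12522.5 UMIs. The libraries shared 7 barcodes among kept cells. Counts of the targeted gene went against the labels: Cacna1h had 168 UMIs under the Cav3.2KO label and 13 under the WT label, which is 1.67 (95% interval 1.42 to 1.94) and 0.25 (0.133 to 0.427) CPM. In cells that were not tumour-like, which the label concerns, it had 162 and 13 UMIs, or 2.39 (2.03 to 2.78) and 0.428 (0.228 to 0.732) CPM. CPM are UMIs of a gene per 1000000 mouse UMIs of the same cells, and every level given in the following is in this unit. A 3' count outside a deleted part would not test a deletion, and the part deleted is not given. An exchange of the labels cannot be told apart from this, and it would turn every ratio below round. Among cells that were not tumour-like, 3810 of 5501 under the Cav3.2KO label held Xist and no Y-linked UMI and 907 held Y-linked UMIs and no Xist, whereas under the WT label 1 and 2041 of 2470 did. The Cav3.2KO library therefore holds cells of both kinds and the WT library almost only the Y-linked kind. Values from Y-linked cells alone are given beside results below. They do not separate sex from animal, since the number of animals is not given. With 1 library per label there is no replicate error and no test: intervals are 95% intervals that cover counting error only, exact except for changes in the ratio of activating to inhibitory UMIs, which are log-normal, and differences between the libraries cannot be told apart from differences between the animals or preparations. A level is called higher or lower when it differs at least 1.5-fold.

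Cells were assigned to classes by marker genes, none of them a receptor described here, and the names carry "-like" for that reason. In all, 11 classes had at least 50 cells in each library. The gate left 751 of 9685 cells without a class, and 90.1% of gated cells lay in a cluster of the same name when cells were clustered without the receptor genes. Oligodendrocyte-, neuroblast- and astrocyte-like cells, 240 and 67 in number, gave the background of free or mixed RNA. Under the Cav3.2KO label 7 of the 240 held 80.4% of their Fcer1g UMIs, and Scrublet marked 5 of these 7 as doublets. The Fcer1g background under that label therefore rests mainly on few cells, whereas the 67 cells under the WT label held 2 Fcer1g UMIs. A receptor is described as above background in a class when its UMIs per cell are at least 3 times the upper limit in those neural-like cells, in the library where its level is higher.

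Of the receptors, 4 lie together on mouse chromosome 1 (mm10, GENCODE M21), within 276 kb, in the order Fcgr2b (chr1:170958617-170976547, minus strand), Fcgr4 (chr1:171018920-171029761, plus strand), Fcgr3 (chr1:171051174-171064935, minus strand) and Fcer1g (chr1:171229572-171234365, minus strand). Fcgr1 lies at chr3:96282909-96293969 and Fcgrt at chr7:45092990-45103851, both on the minus strand. The last 400 bases of their transcripts shared no window of 90 bases with one another, so reads of that length there could not be split between them. Fcgr2b overlaps the antisense gene Gm38204 and Fcgrt overlaps the antisense gene Gm45669, and the labels do not say whether strand was used in counting.

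The starts of the 3 activating receptor genes are shown because their levels varied together over the cell classes, as described further on. The following are the 100 bases before the RefSeq start of each (GRCm38.p6), printed 5' to 3' on the gene's strand, at chr3:96293970-96294069 (minus strand) for Fcgr1, chr1:171059404-171059503 (minus strand, the first of 2 listed starts) for Fcgr3 and chr1:171018826-171018925 (plus strand) for Fcgr4. Capitals mark TTCCTC, the reverse complement of GAGGAA, a core that the myeloid factor PU.1 is known to bind. These letters were picked after the sequences had been read.
Fcgr1: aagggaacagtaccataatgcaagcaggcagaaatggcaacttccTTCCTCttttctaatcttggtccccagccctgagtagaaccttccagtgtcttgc
Fcgr3: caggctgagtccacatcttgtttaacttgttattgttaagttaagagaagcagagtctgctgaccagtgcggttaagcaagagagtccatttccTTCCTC
Fcgr4: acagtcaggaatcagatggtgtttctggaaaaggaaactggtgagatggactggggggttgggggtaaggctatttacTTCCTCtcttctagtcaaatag
The 250 bases before the start held 1 match on either strand in each of these genes and none in Fcer1g, Fcgr2b or Fcgrt. Since the letters were picked after reading, this split is a description and tests nothing. The shorter GGAA within GAGGAA also lies in the 100 bases before the start of Fcer1g, Fcgr2b and Fcgrt. The start of Fcgr2b is not shown, though its level varied with theirs too. Its Pearson's r over the classes was 0.86 with Fcgr1, 0.78 with Fcgr3 and 0.93 with Fcgr4. Of all 27025 promoters in the table, 23.1% held the letters within 250 bases and 9.76% within 100, so a match is common. Fcgr1 and Fcgr3 also shared the run TTCCTTCCTC, which overlaps the capitals and is present in 0.377% of the promoters.

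The receptor transcripts were concentrated in macrophage-, monocyte- and microglia-like cells. These classes held 77.5% of all Fcgr1 UMIs of kept cells under the Cav3.2KO label and 90.8% under the WT label. The shares were 76.5% and 89% for Fcgr3, 77.7% and 92.8% for Fcgr4, and 82.6% and 88.9% for Fcgr2b. Fcer1g was spread more widely, with 64.2% and 73.7% in those classes. Fcgrt was the most widely spread of the 6, with 48.9% and 55.8%. All shares were lower under the Cav3.2KO label, where 527 of 6575 cells had no class, against 224 of 3110 under the WT label, and held 14% of the Fcgr1 UMIs, against 4.93%.

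**Figure D1:**
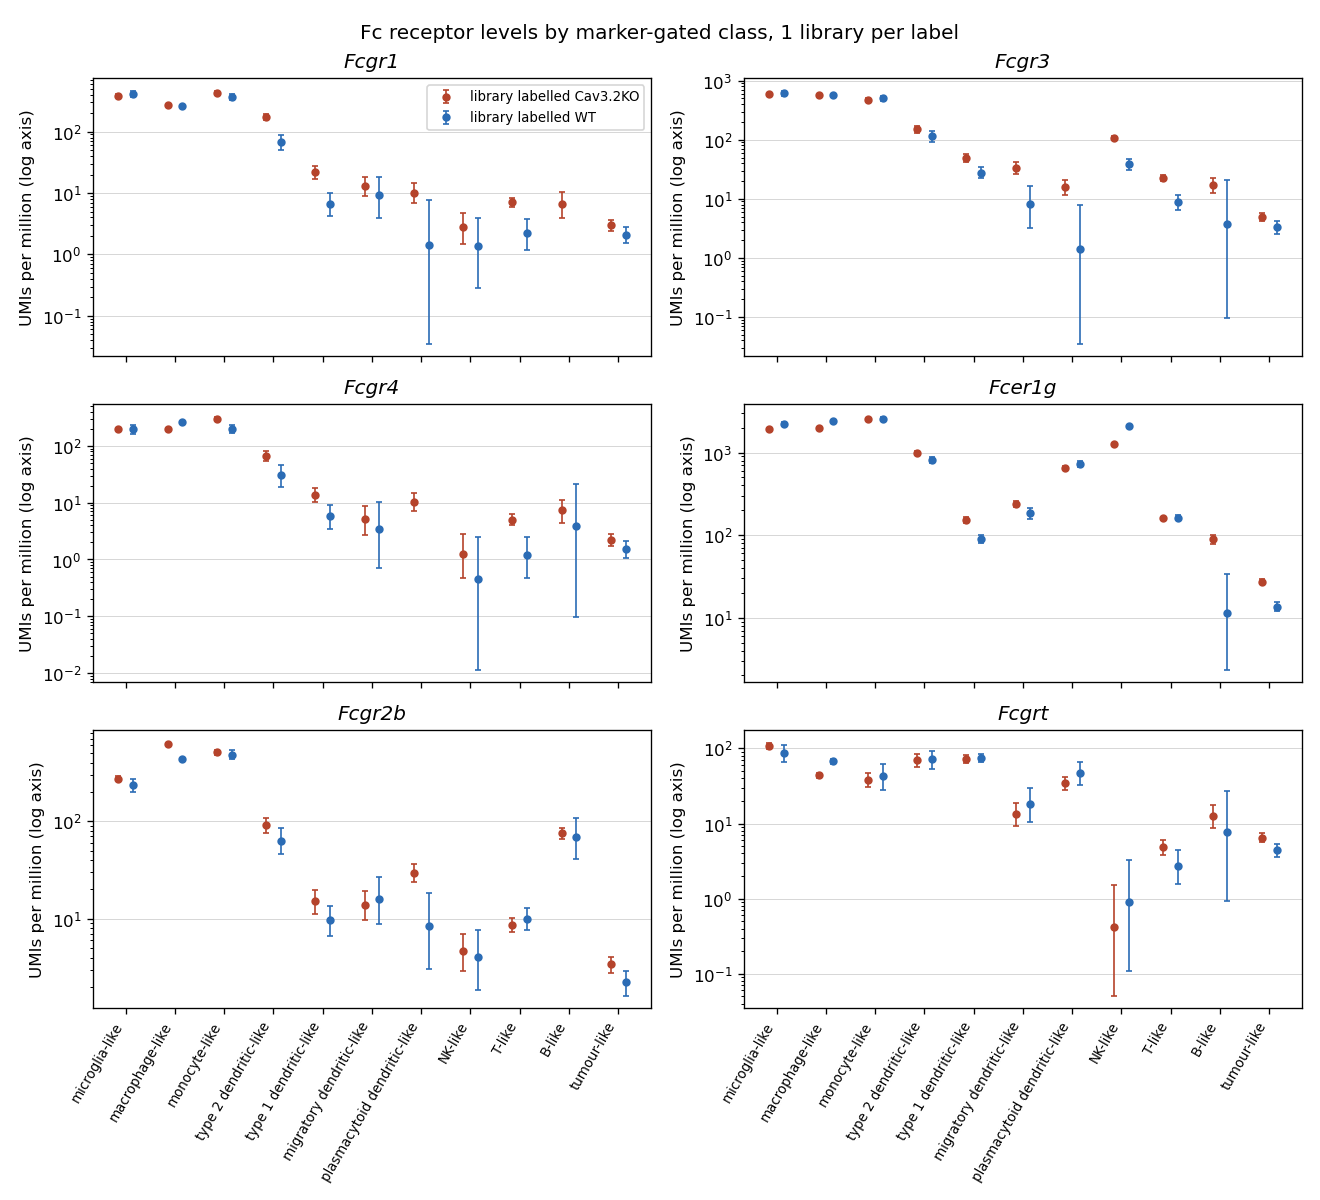
CPM of each receptor gene (log axis) in 11 marker-gated classes, with the library labelled Cav3.2KO on the left of each pair and the library labelled WT on the right; bars are exact Poisson 95% intervals, and a library with no UMI has no point. The activating genes and Fcgr2b are highest in microglia-, macrophage- and monocyte-like cells, Fcer1g is also high in NK-like cells, and Fcgrt is at like levels in microglia-, type 1 and type 2 dendritic-like cells.

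Fcgr1 encodes the high-affinity IgG receptor. Its level was 385 CPM under the Cav3.2KO label and 409 under the WT label in microglia-like cells, 427 and 367 in monocyte-like cells, and 267 and 258 in macrophage-like cells. Microglia- and monocyte-like cells overlapped between the libraries, and macrophage-like cells lay below both. Type 2 dendritic-like cells followed with 173 and 67.4, and every other compared class was at or below 21.9 in both libraries.

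Fcgr3 encodes a low-affinity receptor and had a wider range of carriers. It reached 601 CPM under the Cav3.2KO label and 608 under the WT label in microglia-like cells, 571 and 574 in macrophage-like cells, and 479 and 500 in monocyte-like cells. The gap between libraries was smaller than the gap between these classes. Type 2 dendritic-like cells had 151 and 114, and NK-like cells 107 and 38.6. Outside the compared classes, mast or basophil-like cells, 33 and 31 in number, had 268 (197 to 356) and 196 (140 to 266), with no UMI of Fcgr1 or Fcgr4 in either library.

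Fcgr4 encodes a receptor that binds mainly IgG2 subclasses. Monocyte-like cells had 300 CPM under the Cav3.2KO label and 200 under the WT label, macrophage-like cells 195 and 267, and microglia-like cells 196 and 196. The ranges of the 3 classes overlapped, so no order among them can be read. In NK-like cells Fcgr4 had 6 UMIs in 639 cells under the Cav3.2KO label and 1 UMI in 266 cells under the WT label.

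Fcer1g, the shared signalling chain, was present in nearly every macrophage-like cell. It had a UMI in 99.3% of 735 macrophage-like cells under the Cav3.2KO label and in 99.2% of 601 under the WT label. Its level was 2511 and 2564 CPM in monocyte-like cells, 1990 and 2392 in macrophage-like cells and 1926 and 2207 in microglia-like cells. NK-like cells had 1272 and 2105, plasmacytoid dendritic-like cells 648 and 721, and type 1 dendritic-like cells 152 and 89.7. Mast or basophil-like cells, in which the chain also serves the IgE receptor, had 2189 (1976 to 2420) and 1266 (1117 to 1430).

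Fcgr2b, the inhibitory receptor, was highest in macrophage-like cells, with 622 CPM under the Cav3.2KO label and 436 under the WT label, and in monocyte-like cells, with 512 and 483. Microglia-like cells had less, 273 and 234. B-like cells had 75.1 (65.2 to 86.1) and 68.6 (40.6 to 108), close to type 2 dendritic-like cells at 91.5 and 63.3. At 2000 UMIs per cell, 11.9% and 10.7% of B-like cells held a Fcgr2b UMI, against 0.431% (0.0109 to 2.38) and 0% (0 to 5.36) of neural-like cells.

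Fcgrt was spread over myeloid and vascular classes. Microglia-like cells had 108 CPM under the Cav3.2KO label and 86.1 under the WT label, type 1 dendritic-like cells 72.8 and 74.7, and type 2 dendritic-like cells 69.5 and 71.5. Of the 11 compared classes NK-like cells were lowest, with 2 UMIs in each library. Endothelial-like cells, in which FcRn is known to keep IgG in circulation, had 163 (123 to 213) and 81.6 (55.5 to 116), and pericyte or fibroblast-like cells 174 (120 to 243) and 108 (78.3 to 145). These vascular classes held only 38 and 22, and 15 and 21 cells, so their libraries were not compared.

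Over the 11 classes with both libraries as separate points, 22 points in all, the activating genes followed one another. Pearson's r of log2(CPM + 1) was 0.97 between Fcgr1 and Fcgr4, 0.91 between Fcgr1 and Fcgr3 and 0.89 between Fcgr3 and Fcgr4. It was 0.93 between Fcgr4 and Fcgr2b, 0.58 between Fcer1g and Fcgr2b and 0.37 between Fcer1g and Fcgrt. The points share libraries and free RNA, so these values are descriptions. Among 7241 other genes, the pattern most like Fcgr1 was that of Igsf6 (r = 0.98), then Clec5a and Csf1r, the receptor of a macrophage growth factor. Fcgr3 was most like Hk3 (0.94), Itgam and Clec5a, and the genes most like Fcgr4 included Igsf6 and Clec5a (0.96 each). Fcer1g was most like Tyrobp (0.94), which encodes a related signalling chain, then Abr and Lilrb4a. Fcgr2b was most like Cyp4f18 (0.96) and Pilra, and Fcgrt most like Amz1 (0.94), Erp29 and Gm2a.

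The libraries were then compared class by class. Of 66 pairs of a receptor gene and a class, 44 had at least 100 UMIs over both libraries. By the 1.5-fold rule 11 of them were higher under the Cav3.2KO label and 2 were lower. Of the 33 pairs above background, 6 were higher and 2 lower. The other 11 pairs were not above background, and 5 of them were higher, in tumour-, T- and B-like cells. Over all genes measured in a class, between 4.52% and 14.6% were higher and between 2.63% and 11.2% lower.

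**Figure D2:**
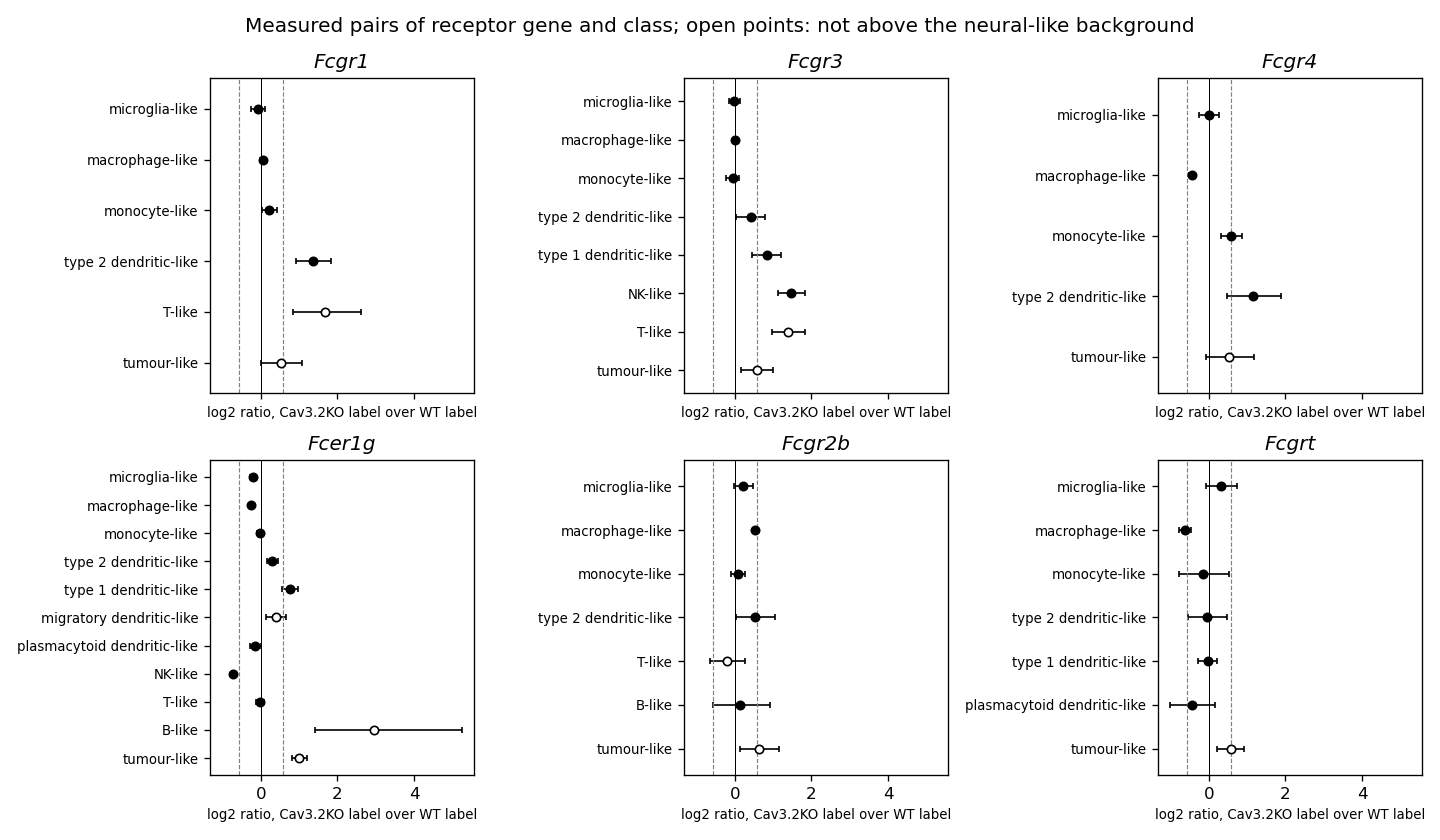
The log2 ratio of CPM, Cav3.2KO label over WT label, for the 44 measured pairs of receptor gene and class, with exact 95% intervals for counting error; dashed lines mark 1.5-fold, and open points are not above the neural-like background. Microglia-like points lie within 1.5-fold for all 6 genes, Fcgr1 and Fcgr4 are to the right in type 2 dendritic-like cells, and in NK-like cells Fcgr3 lies to the right and Fcer1g to the left.

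In microglia-like cells none of the 6 genes passed 1.5-fold, where 5.95% of all measured genes were higher and 4.57% lower. Their median log2 ratio was -0.01, against -0.04 over all measured genes. The ratio nearest to a change was that of Fcgrt, with 108 CPM under the Cav3.2KO label and 86.1 under the WT label (1.25-fold, 0.954 to 1.67). Fcer1g had 1926 and 2207 (0.873-fold, 0.826 to 0.922), and its interval was the one of the 6 that did not include 1. The interval of Fcgr4 ran from 0.833- to 1.21-fold, and that of Fcgr3 from 0.891- to 1.1-fold. Only 72 microglia-like cells came from the WT library, against 325 from the Cav3.2KO library. In the Cav3.2KO library itself, Fcgr2b had 163 CPM in 85 Y-linked microglia-like cells and 307 in 206 Xist-only ones.

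In macrophage-like cells Fcgrt was the single receptor gene called, while the differences of Fcgr2b, Fcgr4 and Fcer1g exceeded counting error but not 1.5-fold. Fcgr2b was 622 CPM under the Cav3.2KO label and 436 under the WT label, 1.43-fold (1.38 to 1.48). Fcgr4 was 195 and 267 (0.731-fold, 0.693 to 0.77), and Fcer1g 1990 and 2392 (0.832-fold, 0.818 to 0.846). Fcgr1 and Fcgr3 differed by 1.04-fold (0.986 to 1.09) and 0.995-fold (0.962 to 1.03). Fcgrt was called lower, with 44 and 67.7 (0.65-fold, 0.582 to 0.725), where 5.46% of all measured genes were higher and 5.53% lower. A Fcgrt UMI was found in 47.3% (43.7 to 51) and 54.9% (50.8 to 58.9) of macrophage-like cells, the direction of the level. After thinning to 2000 UMIs per cell the shares were 10.1% (8.04 to 12.6) and 9.88% (7.61 to 12.6), so no difference was seen there. With TMM factors or the median of ratios Fcgrt fell just short of 1.5-fold.

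The macrophage-like cells of the libraries were split differently over clusters, though cluster 2 was the largest in both, so the comparison was repeated within each. Under the Cav3.2KO label 415 lay in cluster 2, 211 in cluster 3 and 34 in cluster 14, and under the WT label 278, 81 and 230. Arg1 leads cluster 3, the arginase of a macrophage state common in tumours. Cluster 14 was led by the cell cycle genes Cenpf, Birc5 and Top2a and held 34 of these cells under the Cav3.2KO label. It was the one cluster in which Fcgr2b, Fcgr4, Fcer1g and Fcgrt passed 1.5-fold. Fcgr2b was higher there, with 575 CPM under the Cav3.2KO label and 369 under the WT label (1.56-fold), and was 647 and 460 (1.41-fold) in cluster 2 and 618 and 715 (0.863-fold) in cluster 3. Fcgr4 was lower in cluster 14, with 125 and 301 (0.416-fold), and was 163 and 220 (0.743-fold) in cluster 2 and 287 and 353 (0.814-fold) in cluster 3. Fcer1g was lower in cluster 14, with 1512 and 2472 (0.612-fold). It was 1742 and 2217 (0.786-fold) in cluster 2 and 2739 and 3052 (0.898-fold) in cluster 3. Fcgrt was lower in cluster 14, with 38.2 and 80.6 (0.474-fold), and was 43.1 and 62.1 (0.694-fold) in cluster 2. In cluster 3 Fcgrt was 21.5 and 30.3 (0.709-fold), and the interval of its log2 ratio, -1.18 to 0.23, included 0. In Y-linked macrophage-like cells, 132 and 547 in number, Fcgr2b was 604 and 434, Fcgr4 238 and 265, Fcer1g 2411 and 2371, and Fcgrt 31.4 and 68.3. With clusters weighted alike, the log2 ratio of Fcgr2b was 0.25. The log2 ratios in the Y-linked cells were 0.48 for Fcgr2b, -0.15 for Fcgr4, 0.02 for Fcer1g and -1.12 for Fcgrt, against 0.51, -0.45, -0.27 and -0.62 in all macrophage-like cells.

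The summed UMIs of Fcgr1, Fcgr3 and Fcgr4 per Fcgr2b UMI give the balance of activating and inhibitory transcripts, compared here only between libraries. In macrophage-like cells it was 1.66 (1.62 to 1.71) under the Cav3.2KO label and 2.52 (2.44 to 2.61) under the WT label, a log2 ratio of -0.60 (-0.66 to -0.54). In monocyte-like cells it was 2.36 (2.21 to 2.52) and 2.21 (1.93 to 2.53), and in microglia-like cells 4.33 (4.06 to 4.63) and 5.19 (4.38 to 6.18), a log2 ratio of -0.26 (-0.52 to -0.001). In type 2 dendritic-like cells it was 4.27 (3.53 to 5.2) and 3.35 (2.39 to 4.76), and in type 1 dendritic-like cells 5.63 (4.17 to 7.74) and 4.16 (2.81 to 6.32). Of the 5 classes, only macrophage-like cells had library intervals that did not overlap. The clusters of macrophage-like cells differed in this: the balance was 1.49 and 2.14 in cluster 2, 1.53 and 3.18 in cluster 14, and 2.02 and 1.94 in cluster 3, a log2 ratio of 0.064 (-0.10 to 0.23). In Y-linked macrophage-like cells it was 1.66 and 2.5. In Y-linked microglia-like cells, 85 and 58 in number, it was 6.62 and 5.14, a log2 ratio of 0.37 (-0.0091 to 0.74), so the sign in microglia-like cells turned round. In Y-linked monocyte-like cells it was 3.22 and 2.07, a log2 ratio of 0.64 (0.18 to 1.09). The clusters of monocyte-like cells differed too. The balance was 6.01 and 3.27 in cluster 21, a log2 ratio of 0.88 (0.49 to 1.27), and 1.67 and 1.74 in cluster 3. Monocyte markers in macrophage-like cells summed to 827 CPM under the Cav3.2KO label and 499 under the WT label, with the larger CPM under the Cav3.2KO label for 6 of 9 and none at 0. Their part in the balance was not tested.

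**Figure D3:**
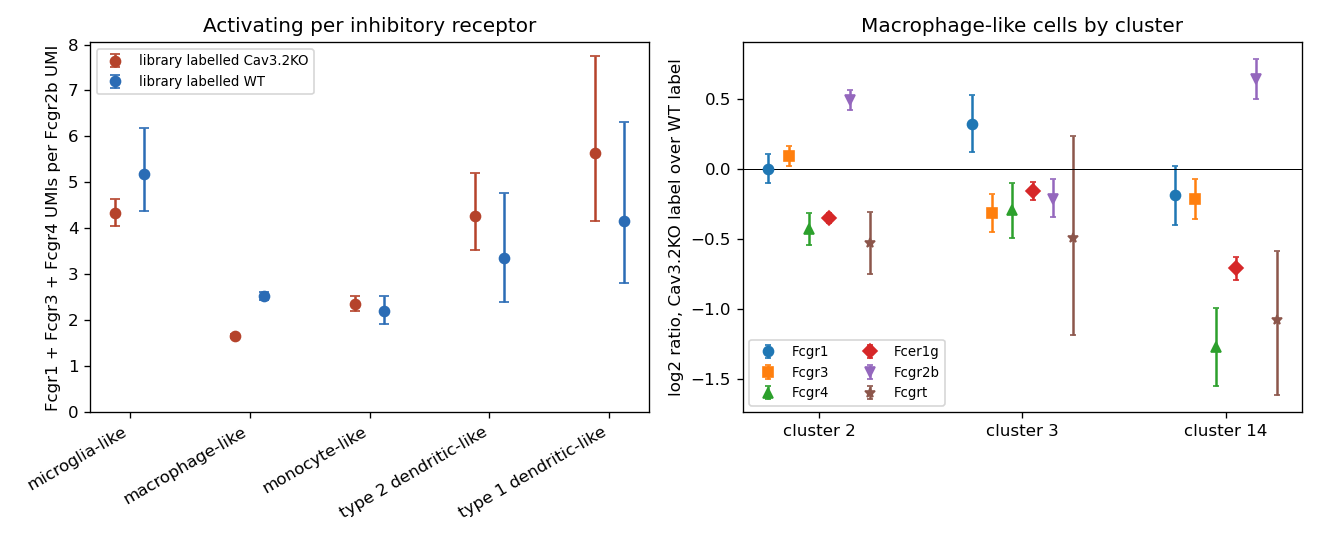
Left, summed UMIs of Fcgr1, Fcgr3 and Fcgr4 per Fcgr2b UMI in 5 myeloid classes, with the library labelled Cav3.2KO left of the library labelled WT; right, log2 ratio of each receptor gene, Cav3.2KO label over WT label, within 3 clusters of macrophage-like cells. Bars are 95% intervals for counting error. The balance is 1.66 and 2.52 in macrophage-like cells, and Fcgr2b lies above 0 in clusters 2 and 14 and below 0 in cluster 3.

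In monocyte-like cells 1 of 6 receptors was called higher and none lower, where 7.4% of all measured genes were higher and 7.43% lower. Fcgr4 had 300 CPM under the Cav3.2KO label and 200 under the WT label, 1.5-fold (1.25 to 1.82). It lies at the threshold and was under it in 7 of 12 alternatives. A UMI was found in 77.1% and 55.4% of these cells, and after thinning in 38.4% (32.6 to 44.3) and 24.4% (15.6 to 35.1). In Y-linked cells, 25 and 63, it was 196 and 206, so the difference was not seen there. Fcgr1 had a ratio of 1.16 (1.01 to 1.34) and Fcgr2b of 1.06 (0.936 to 1.2). With named clusters as classes the log2 ratio of Fcgr2b was -0.67, and in the Y-linked cells -0.91, against 0.08 in all monocyte-like cells. Fcgr3 was 278 and 490 in the Y-linked cells, a log2 ratio of -0.82, against -0.061 in all monocyte-like cells. The log2 ratio of Fcgrt was -0.15, but -1.44 with named clusters as classes and -1.69 with clusters weighted alike.

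Type 2 dendritic-like cells, which present antigen to CD4+ T cells, had 2 of 6 receptors called higher and none lower, where 10.5% of all measured genes were higher and 7.92% lower. Fcgr1 had 173 CPM (152 to 196) in 102 cells under the Cav3.2KO label and 67.4 (49.9 to 89.1) in 55 cells under the WT label, 2.56-fold. Fcgr4 had 66.8 (54.1 to 81.5) and 30.3 (19 to 45.8), 2.21-fold. Fcgr2b was 1.45-fold (1.03 to 2.07), Fcgr3 1.33-fold (1.03 to 1.73) and Fcer1g 1.23-fold (1.12 to 1.36), whereas Fcgrt was 0.972-fold (0.689 to 1.39). The median log2 ratio of the 6 was 0.47, against -0.03 over all measured genes, but the ratios of Fcgr2b and Fcgr3 did not hold their sign: with named clusters as classes their log2 ratios were -0.26 and -0.27, and in Y-linked cells -0.94 and -0.22. Before thinning, 64.7% and 41.8% of cells held Fcgr1, and 39.2% (29.7 to 49.4) and 23.6% (13.2 to 37) held Fcgr4. After thinning, 23.5% and 7.27% of cells held Fcgr1. For Fcgr4 the thinned shares were 11.8% (6.23 to 19.6) and 14.5% (6.5 to 26.7), and no direction can be read from them. Monocyte markers moved with Fcgr1 in this class. Their sum was 2158 and 1518, with the larger CPM under the Cav3.2KO label for 8 of 9, among them Ly6c2 with 75 and 12.4 and Ccr2 with 184 and 78.4, and Chil3 and Vcan were at 0 under the WT label. Macrophage markers summed to 1132 and 938, with the larger CPM under the Cav3.2KO label for 8 of 11. Ms4a6c had the most of it, with 752 and 411, while C1qa, with 31.7 and 118, and Mmp12, with 42.7 and 179, were lower. Arg1 was at 0 under the WT label and Adamdec1 under both. The part of either list in the receptor levels was not tested. The WT cells of this class number only 55, and in Y-linked cells, 11 and 52, Fcgr1 was 245 and 62.7.

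Type 1 dendritic-like cells, specialists in cross-presentation, had 2 of 3 measured receptors higher and none lower, where 4.52% of all measured genes were higher and 4.14% lower. Fcgr3 had 49.1 CPM under the Cav3.2KO label and 27.7 under the WT label (1.77-fold, 1.37 to 2.31), and Fcer1g 152 and 89.7 (1.69-fold, 1.46 to 1.96). Fcgrt had 72.8 and 74.7 (0.975-fold, 0.814 to 1.17). Macrophage markers summed to 494 and 301, with the larger CPM under the Cav3.2KO label for 8 of 11 and none at 0, and their part was not tested. In Y-linked cells the log2 ratios were -1.26 for Fcgr3 and -0.24 for Fcer1g, so neither was higher there. With named clusters in place of the gate Fcer1g was at 0.0083. Within the Cav3.2KO library Fcgr3 had 11.6 in 26 Y-linked cells and 60.8 in 101 Xist-only cells. In plasmacytoid dendritic-like cells neither measured receptor was called, where 6.18% of all measured genes were higher and 6.81% lower. Fcer1g had 648 and 721 there, 0.899-fold (0.815 to 0.992), and Fcgrt 34.8 and 47.4, 0.734-fold (0.494 to 1.12). In migratory dendritic-like cells, where 6.36% were higher and 4.93% lower, Fcer1g had 241 and 183 but was not above background.

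NK-like cells, whose Fcgr3 product triggers killing of antibody-coated cells, showed both directions. The 2 measured receptors were 1 higher and 1 lower, where 7.08% of all measured genes were higher and 7.33% lower. Fcgr3 had 107 CPM (98 to 117) under the Cav3.2KO label and 38.6 (30.8 to 47.7) under the WT label, 2.78-fold (2.2 to 3.53). Its UMIs per cell were 3.42 times the neural-like upper limit under the Cav3.2KO label and 2.44 times under the WT label. The WT level of Fcgr3 therefore passed that limit but not the 3 times asked. Fcer1g, the chain through which it signals, had 1272 (1240 to 1304) and 2105 (2045 to 2167), 0.604-fold (0.581 to 0.628). Per cell, Fcer1g had a median of 7 UMIs in 639 cells and of 12.5 in 266 cells, and 74.2% and 91% of cells held 5 or more. Fcgr3 was found in 45.9% and 21.1% of cells, and after thinning in 17% (14.1 to 20.1) and 7.6% (4.71 to 11.5). Neural-like cells after thinning had 2.16% (0.703 to 4.96) and 0% (0 to 5.36).

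**Figure D4:**
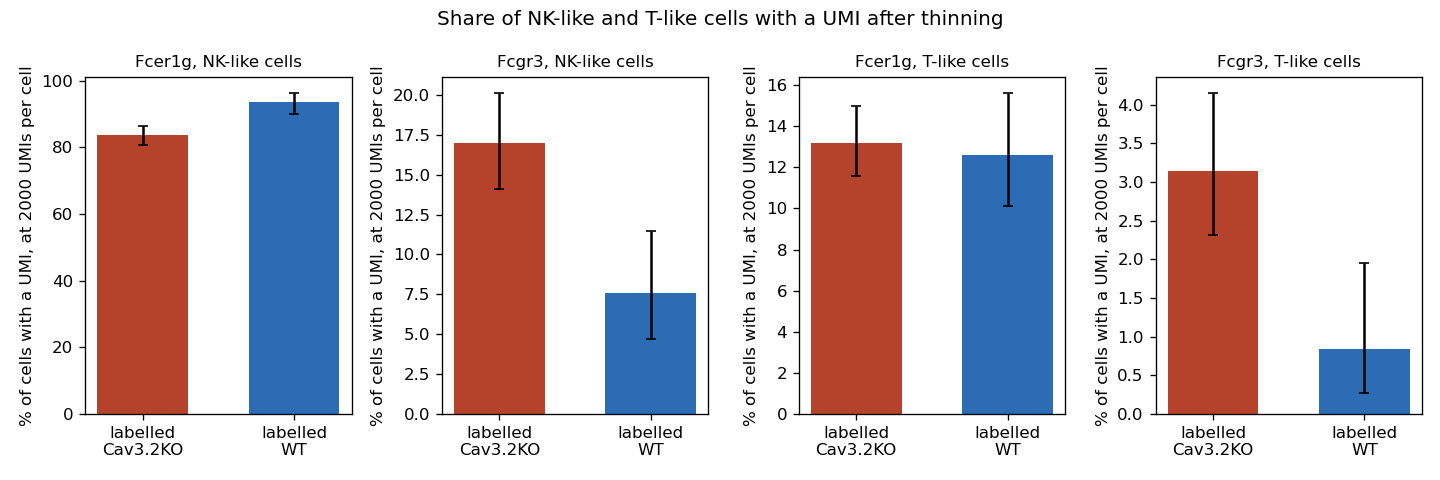
Share of NK-like and T-like cells with a UMI of Fcer1g or Fcgr3 after each cell was thinned to 2000 UMIs, with the library labelled Cav3.2KO left of the library labelled WT and exact binomial 95% intervals as bars; each panel has its own axis from 0. In NK-like cells Fcer1g is in 83.7% and 93.5% and Fcgr3 in 17% and 7.6% of cells, and in T-like cells Fcer1g is in 13.2% and 12.6%.

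Macrophage markers were also higher in NK-like cells of the Cav3.2KO library, with a sum of 208 CPM against 82.7 under the WT label, the larger CPM there for 8 of 11 and Mmp12 at 0 under the WT label. Without cells that held 5 or more of 10 myeloid genes Fcgr3 was 105 and 38.6 and Fcer1g 1274 and 2105, but this kept 628 of 639 and all 266 cells, so the part of free macrophage RNA was not tested. T cell markers summed to 448 and 330, with the larger CPM under the Cav3.2KO label for all 10 and Cd8a, Cd4 and Cd5 at 0 under the WT label, and their part was not tested. In Y-linked NK-like cells, 80 and 208, Fcgr3 was 72.3 and 40.3 and Fcer1g 1559 and 2137, which is the same direction at a smaller size, and Fcer1g was then under 1.5-fold.

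T cells are not known as carriers of most of these receptors, and 1 of the 4 measured pairs was above background. That gene was Fcer1g, with 159 CPM under the Cav3.2KO label and 162 under the WT label (0.978-fold, 0.908 to 1.05). Its UMIs per cell were 14.7 times the neural-like upper limit under the WT label, against 1.67 times under the Cav3.2KO label. It was thus above background through the WT library. These limits, and the subtraction below, rest on 2 UMIs in 67 neural-like cells and on 224 in 240, of which 7 cells held 80.4%. In Y-linked T-like cells Fcer1g was 58.2 and 172, a log2 ratio of -1.57. Its log2 ratio was -0.91 with named clusters as classes and -1.08 after neural-like UMIs per cell were subtracted. The near-equal levels therefore depend on the cells compared. Fcer1g was held by few cells. Of 1520 and 603 cells, 139 and 48 had 5 or more UMIs and held 87.9% and 84.7% of its UMIs. These cells also carried NK receptor genes, with Klrb1c in 50.4% and 62.5% and Klra7 in 43.2% and 52.1% of them, while Cd3e was found in 97.1% and 100%. Fcgr1 and Fcgr3, not above background, were the 2 called higher, where 5.24% of all measured genes were higher and 2.63% lower. Fcgr3 had 22.6 and 8.68, and in T-like cells with under 5 of 10 myeloid genes it had 16 (14.1 to 18) and 2.95 (1.72 to 4.72), in 195 of 1476 and 15 of 597 cells. There it had 5.59 UMIs per Fcgr2b UMI under the Cav3.2KO label and 1.89 under the WT label. The WT value rests on 17 Fcgr3 and 9 Fcgr2b UMIs. The same ratio was 0.918 and 1.32 in macrophage-like, 0.937 and 1.03 in monocyte-like and 2.2 and 2.6 in microglia-like cells. The part of free myeloid RNA was not tested. Cluster 6 was led by Tnfrsf4, Il2ra and Ctla4. Among its cells with under 5 myeloid genes, Fcgr3 had 81 UMIs in 333 under the Cav3.2KO label and 1 UMI in 107 under the WT label. These are 22.1 and 1.04 CPM. Cluster 4 was close to this, with 51 UMIs in 290 cells and 5 in 163, or 21 and 3.96 CPM. In clusters 7, 12, 17 and 19 the level was also larger under the Cav3.2KO label. In Y-linked T-like cells, 281 and 515, Fcgr3 was 9.31 and 9.26, whereas the 1085 Xist-only cells of the Cav3.2KO library had 23.4.

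In B-like cells Fcgr2b did not pass 1.5-fold (1.09-fold, 0.676 to 1.88). Fcer1g had 89.4 and 11.4 and was called higher, where 14.6% of all measured genes were higher and 11.2% lower, but was not above background. Of 299 B-like cells under the Cav3.2KO label, 9 held 86.9% of its UMIs, and 5 of those 9 held 5 or more myeloid genes. In tumour-like cells no receptor was above background in the library where it was higher, and Fcer1g and Fcgr2b were the 2 called higher, where 11.8% of all measured genes were higher and 7.22% lower. Fcer1g had 27.2 and 13.6, and 28 of 1074 and 8 of 640 cells held 67.1% and 66.4% of its UMIs. Its UMIs per cell were 0.782 and 4.27 times the neural-like upper limit, so the WT level alone passed it. Macrophage markers in tumour-like cells summed to 2628 and 1780, with the larger CPM under the Cav3.2KO label for 6 of 11 and none at 0. Nearly all of both sums was Gpnmb, with 2479 and 1655, a gene that also leads a cluster of tumour-like cells. The sums therefore do not measure macrophage RNA there, and the part of the other markers was not tested.

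The other genes of the pathway were read from lists. Of the ITAM signalling genes downstream of the activating receptors, none of 15 was called in macrophage-like cells, with a median log2 ratio of -0.06 against -0.05 over all measured genes. Syk, the kinase that binds the phosphorylated chain, had 296 CPM under the Cav3.2KO label and 339 under the WT label. None of 12 was called in NK-like cells (median 0.16 against 0.04) and none of 14 in monocyte-like cells (0.14 against -0.02). In type 2 dendritic-like cells 2 of 14 were higher, where 10.5% of all measured genes were, namely the adaptor genes Lcp2, with 162 and 71.5, and Lat2, with 57.8 and 37.1. In microglia-like cells 1 of 14 was higher, where 5.95% of all measured genes were, the kinase gene Fyn, with 98.3 and 28.7. In tumour-like cells 7 of 13 were higher, where 11.8% of all measured genes were higher and 7.22% lower.

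Among inhibitory signalling genes, 1 of 7 was called in macrophage-like cells, where 5.53% of all measured genes were lower. Dok2, an adaptor that restrains signalling, had 12.2 CPM under the Cav3.2KO label and 50 under the WT label there. In NK-like cells Dok2 had 127 and 60.4 and was the 1 of 6 called higher, where 7.08% of all measured genes were. Inpp5d, the lipid phosphatase recruited by the Fcgr2b product, had 458 and 478 in macrophage-like cells. Of the other receptors that pair with the Fcer1g chain, 5 were measured in macrophage-like cells, and Clec4e, with 35.2 and 17.3, and Clec4d, with 64.9 and 32.1, were higher, while Lilra5, with 20.4 and 50.3, was lower, where 5.46% of all measured genes were higher and 5.53% lower. Both Clec genes encode lectins that sense microbial glycolipids. Clec4n was lower in monocyte-like cells, with 183 and 300, and in type 2 dendritic-like cells, with 181 and 310.

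In NK-like cells 2 of 3 measured adaptors related to the Fcer1g chain were higher, where 7.08% of all measured genes were. Cd247, which encodes the zeta chain that serves CD16 beside the Fcer1g chain in human NK cells, had 267 CPM under the Cav3.2KO label and 166 under the WT label, and Hcst had 310 and 174. Tyrobp had 1511 and 1354 and was not called. Of the other immunoglobulin receptors, 3 of 4 were higher in macrophage-like cells, where 5.46% of all measured genes were, at low levels: Fcrla with 6.16 and 2.33, Fcrlb with 9.03 and 4.17, and Fcrls with 20.9 and 10.9. Fcrls is a microglial gene, and in microglia-like cells it had 347 and 488. B2m, the FcRn partner, was 1.16-fold in macrophage-like cells and 1.01-fold in NK-like cells, and was called higher in tumour-like cells. The IgG heavy chain Ighg1 had 216 UMIs in macrophage-like and 145 in NK-like cells under the Cav3.2KO label and 0 in both under the WT label. Plasma-like cells, which make IgG, numbered 37 and 3, and the part of their free RNA in those counts was not tested.

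The chromosome 1 genes did not move as a block. In macrophage-like cells Fcgr2b was at a log2 ratio of 0.51, while Fcgr4 was at -0.45, Fcgr3 at -0.01 and Fcer1g at -0.27. Within 1 Mb of them, 37 other genes were measured in that class, with 4 higher, 8 lower and a median of -0.19. In NK-like cells 24 were measured, with 4 higher and 2 lower and a median of 0.03.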

How the data were processed

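The 2 libraries, 1 per label, are 10x Genomics 3' v3.1 libraries. They were made from dissociated mouse brain with an implanted tumour, per the labels' protocols. The authors deposited raw UMI counts per gene and barcode as sparse matrices; Cell Ranger 7.1.0, Seurat 5.0.2 and mm10 are named in the submitters' processing notes, with no role given for Seurat. The reference joins human and mouse genes, 68886 in all, and only mouse genes were used here. Human Fc receptor genes had 0 UMIs.

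Of 8369 and 7382 deposited barcodes (Cav3.2KO and WT labels), 1239 and 3990 had under 500 mouse genes and 555 and 282 had over 10% mitochondrial UMIs. Each cell was scored for 21 marker lists. The log2(1 + UMIs per 10000) of a gene was divided by its 99th percentile, or by 1 where that percentile was smaller. The result was capped at 1, and the score was the mean over the list. A cell took the top class if at least 3 markers had a UMI and the score margin was at least 0.05. Of 8934 gated cells, 577 lay within 0.1. UMIs were summed per class and library and given as CPM. Intervals are exact at 95% (Poisson, binomial, conditional binomial for ratios), except the ratio of activating to inhibitory UMIs, whose change between libraries has a log-normal interval. They cover counting error only. The interval code was tested on simulated counts. A gene was measured in a class with at least 100 UMIs over both libraries, and 1.5-fold was called. For shares, cells were thinned at random to 2000 UMIs each, and 196 and 66 cells with fewer were set aside. Clusters came from 2000 variable genes without the receptors, 30 components, 15 neighbours and Leiden at resolution 1. Doublets were left in: Scrublet marked 164 cells (2.49%) and, by the expected number, 80 (2.57%, where its automatic threshold marked 0.289%), and leaving them out is an alternative. Tools were scanpy 1.11.5, leidenalg 0.10.2, igraph 0.11.9, scipy 1.17.1, numpy 2.4.6 and pandas 2.3.3 in Python 3.11.15, and edgeR 4.0.16 for TMM factors in R 4.3.3.

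The receptors, the gene lists and the rules were chosen with earlier results of these data known. Named pathway genes are at most the 2 highest and the 2 lowest log2 ratios of a list's measured genes in a class; Syk, Inpp5d, Tyrobp, Klrb1c, Klra7, Cd3e, Ly6c2 and Ccr2 were named besides, after their values had been seen. The 3 genes most like each receptor were taken from genes with at least 50 CPM in a class, and a few of them are not reported here. Alternatives changed the barcode filter, doublets, classes, gate, weights, scaling, the cells by sex-linked UMIs and the UMI minimum, and 4 more were added after seeing the data, among them the balance within clusters and Y-linked cells.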

Additional observations from a re-analysis of the deposited data

Results flagged for a closer look

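Fcer1g stood on both sides of 1.5-fold in different classes above background. Its log2 ratio of the Cav3.2KO label over the WT label was 0.76 in type 1 dendritic-like cells and -0.73 in NK-like cells. The difference between the classes was not tested, since each label has 1 library. In Y-linked cells alone the ratios were -0.24 and -0.45, so the opposite directions were not seen there.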

How the results depend on the processing

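No paired analysis was possible because each label has 1 library. Of the 8 called pairs above background, 3 stayed past 1.5-fold under all 12 alternatives: Fcgr1 and Fcgr4 in type 2 dendritic-like cells and Fcgr3 in NK-like cells. The WT level of that Fcgr3 was 2.44 times the neural-like upper limit, under the 3 times asked. Equal weight of clusters could not change these 3 pairs, since their classes had 1 cluster each with enough cells. The removal of cells with myeloid genes did not apply to type 2 dendritic-like cells. An alternative value of a called pair was read from 20 UMIs on, not 100. In Y-linked type 2 dendritic-like cells Fcgr1 had 36 and 44 UMIs and Fcgr4 12 and 16. The count of higher pairs, 11 in the report, was 2 in cells with Y-linked and without Xist UMIs (27 pairs left), 23 with a minimum of 20 UMIs (60 pairs), and 5 after neural-like UMIs per cell were subtracted. The other settings gave 8 to 12. The count of lower pairs, 2 in the report, was 5 with named clusters as classes, 5 with clusters weighted alike, 5 in the Y-linked cells, 4 after the subtraction, and 1 with each cell weighted alike, with the median of ratios or with TMM factors. In the Y-linked cells 3 higher pairs turned round: Fcgr4 in monocyte-like cells had a log2 ratio of -0.074, Fcgr3 in type 1 dendritic-like cells of -1.26 and Fcer1g there of -0.24. After the subtraction Fcgr2b in tumour-like cells had -0.96. The log2 ratio of the activating to inhibitory balance in macrophage-like cells, -0.60 in the report, was 0.064 within cluster 3. Beyond what fewer cells or pairs account for by construction, the cause was not tested. Named clusters moved 16 of 44 log2 ratios and 49 of 88 levels past their counting intervals, and the stricter gate moved none. Subtraction, equal weight of clusters, the balance within clusters and in Y-linked cells, and the removal of cells with myeloid genes were chosen after seeing the data. Depth limits B-like (62), microglia-like (72) and type 2 dendritic-like cells (55) under the WT label.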
